A study of Malus domestica with 8 samples.

Results

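The features described here were the transcripts that stood highest in a single knock-out line of the apple cultivar 'Gala', 50 for each of 3 lines and 150 of 52311 listed features in all. They were chosen by their measured values in all 8 libraries. For each feature the lower of a line's 2 libraries was divided by the highest of the other 6 libraries plus 0.1, in CPM, the reads of a feature scaled to a common library total, adjusted by TMM, a method that evens out differences in RNA composition between libraries. Features with at least 0.5 CPM in the line's lower library were ranked by this ratio, and the first 50 of mdagg-2, of mdagg-3 and of mdagg-4 were taken. Their levels are therefore a description, with no test, and a member is by construction higher in both libraries of its line than in any other library.

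All 4 groups were Malus domestica leaves in 2 libraries each. The control, wt, was non-transformed 'Gala', and mdagg-2, mdagg-3 and mdagg-4 were 'Gala' lines in which CRISPR/Cas9 was aimed at MdAGG. Every group, wt included, had been sprayed with 0.2 g/l of acibenzolar-S-methyl (ASM) and was sampled 3 days later, after plants rooted in vitro had grown for 8 weeks at 22 °C and 80% relative humidity. Each library was a bulk of leaves, and the 2 libraries of a group came from separate experiments. The labels describe neither untreated plants nor transformed plants without the knock-out, and do not say whether a line is 1 clone, so effects of transformation and regeneration cannot be told apart from those of the knock-out.

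MdAGG is the apple agglutinin, a lectin, which is a protein that binds carbohydrates. ASM is a synthetic analogue of salicylic acid, the plant hormone that switches on defence genes and systemic acquired resistance, and it acts in leaves as a priming agent. Apple is a woody plant that is multiplied vegetatively, and lines made by gene editing are regenerated in tissue culture before they are rooted, so that each line has passed through its own transformation and regeneration. The apple genome also carries an old duplication of its whole length, which leaves many genes with a similar copy on another chromosome.

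The libraries held 28591839 to 36995885 estimated reads. Replicates of a group correlated at 0.953 to 0.981 across features on the log2 scale and libraries of different groups at 0.920 to 0.989. Replicate 1 of mdagg-2 and replicate 2 of mdagg-4 stood apart at the opposite ends of the main axis of variation, which held 51.8% of the variance, at -80.1 and 76.3, with the other 6 libraries between -35.6 and 33.9. The membership leans on single libraries, and not on these 2 alone. Without replicate 1 of mdagg-2 the same rule kept 6 of the 50 members of mdagg-2, 13 of mdagg-3 and 41 of mdagg-4. Without replicate 2 of mdagg-4 it kept 38, 43 and 26. Leaving out replicate 2 of mdagg-2 instead, the rule kept 3, 43 and 33, and leaving out replicate 1 of mdagg-4 it kept 37, 39 and 5. Over all 8 libraries left out in turn it kept 3 to 46, 9 to 43 and 5 to 42, fewest where the library was the line's own. No identifier (0) could be matched to a gene name, either in the reference table or within the files themselves, so neither the leaf label nor the knock-out target could be checked against named genes and no member has a stated function. The first pair of members of each line is printed by identifier, and the rest are given by rank.

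Most members exceeded the other libraries by little. In mdagg-2, 896 of the 28251 features that met the 0.5 CPM minimum (3.17%) were higher in both libraries than in all the other 6, in mdagg-3 784 of 28647 (2.74%) and in mdagg-4 860 of 28504 (3.02%), and the 50 members of each line are the top of those lists. The same ranking made for wt, as a reference set of equal size, drew on 489 of 28641 features (1.71%). A ratio of at least 2 was reached by 2 members of mdagg-2, 3 of mdagg-3, 12 of mdagg-4 and 7 of the wt reference set. The leading feature of the wt set, in field 16, had 457 and 341 reads in wt. It had none (0 and 0) in mdagg-4, 0 and 16 in mdagg-2, and 10 and 9 in mdagg-3, so the wt list also opened with a steep feature. A member of the wt set is by construction lower in all 6 libraries of the lines. The wt set therefore cannot tell the ranking itself apart from a difference shared by the lines. Without replicate 1 of mdagg-2 the counts at a ratio of at least 2 were 20, 12, 12 and 10. Without replicate 2 of mdagg-4 they were 2, 3, 21 and 9. A line left with 1 library no longer gives the lower of 2, and its own count was higher whichever library was left out. That count was 97 for mdagg-2 without its replicate 2 and 235 for mdagg-4 without its replicate 1. A ratio under 1.5 was held by 43, 39 and 30 members of the 3 lines and by 37 of the wt set. At the threshold, the member ranked 50 and the feature ranked 51 just outside had ratios of 1.21 and 1.21 for mdagg-2, 1.26 and 1.26 for mdagg-3, and 1.23 and 1.23 for mdagg-4.

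**Figure D1:**
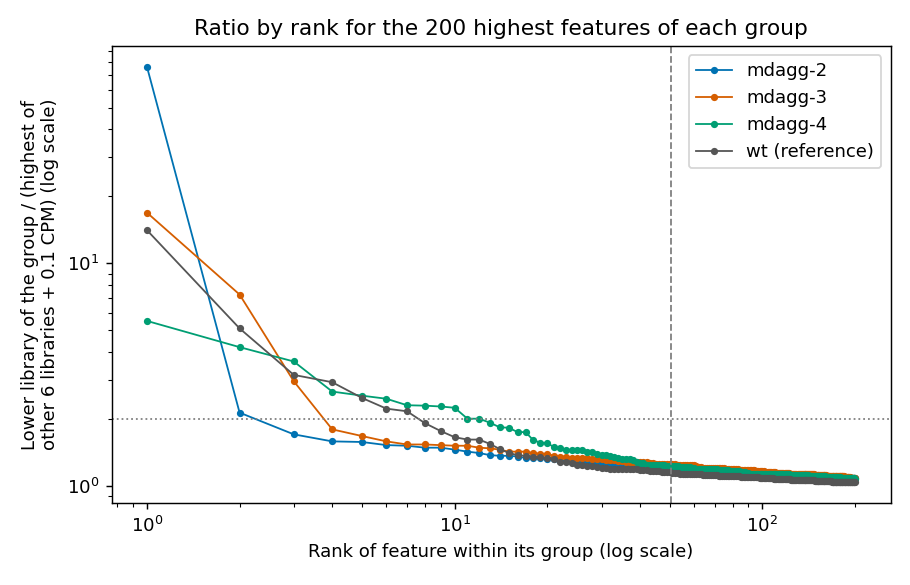
Ratio used by the rule (lower library of the group over the highest other library plus 0.1 CPM, log scale) against rank within the group (log scale), for the 200 highest features of mdagg-2, mdagg-3, mdagg-4 and the wt reference; the dashed line marks rank 50 and the dotted line a ratio of 2. The curve of mdagg-2 starts at 76.3 and is at 2.14 by rank 2, that of mdagg-3 passes 16.9, 7.25 and 2.96, and that of mdagg-4 starts lower, at 5.52, and is still at 2.25 at rank 10, where wt is at 1.66.

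The 3 lines differed in the shape of the list. In mdagg-2 1 feature stood far above the rest, in mdagg-3 a pair did, and in mdagg-4 the ratios declined gradually over 12 features above 2. The wt reference, at 14.1, 5.11 and 3.16 for ranks 1 to 3, had a shape close to that of mdagg-3, at 16.9, 7.25 and 2.96. That length of the mdagg-4 list depends on weakly expressed transcripts, since with 0.5 CPM added in place of 0.1 the counts above 2 were 1, 3 and 3, and with a minimum of 1 CPM they were 2, 3 and 5. Fold differences between the mean of a line and the mean of the other 6 libraries had a median of 1.85 for mdagg-2 (1.36 to 182), 2.25 for mdagg-3 (1.62 to 223) and 2.92 for mdagg-4 (1.43 to 22.3), with 1.88 in the wt set (1.28 to 60.3). Levels in the line itself had a median of 5.05 CPM for mdagg-2 (0.544 to 99.8), 3.04 CPM for mdagg-3 (0.718 to 2000) and 2.33 CPM for mdagg-4 (0.616 to 24.9). These are bulk tissues, where a change in the share of a cell type and a change of RNA per cell cannot be told apart.

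The first member of mdagg-2, MD17G1123100, a transcript of 1929 bases, had 588 and 565 reads in the libraries of mdagg-2. It had 5 and 3 reads in wt, 4 and 5 in mdagg-4, and 3 and 3 in mdagg-3. The transcript was thus well expressed in both mdagg-2 libraries and at a trace in all the others. Its level was 19.6 ± 1.13 CPM (SD, n = 2) in mdagg-2 and 0.108 ± 0.026 CPM (SD, n = 6) elsewhere, a 182-fold difference. It was the first or the second of the mdagg-2 ranking under each of 14 alternative settings, with ratios from 29.1 to 83.7. Over the same settings the other named members held ranks 2 to 14 (MD16G1211300), 1 to 3 (MD08G1171700), 2 to 6 (MD11G1168800), 1 to 12 (MD00G1098300) and 1 to 17 (MD13G1190500), the highest ranks of MD16G1211300, MD00G1098300 and MD13G1190500 being reached without replicate 1 of their own line.

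The second, MD16G1211300, had another pattern. Its reads were 428 and 351 in mdagg-2, 185 and 189 in mdagg-4, 52 and 113 in mdagg-3, and 48 and 19 in wt. It was therefore highest in mdagg-2 but also higher in both libraries of the other lines than in wt, and it is not a transcript of mdagg-2 alone. Its level was 13.3 ± 2.24 CPM (SD, n = 2) in mdagg-2 against 2.80 ± 1.94 CPM (SD, n = 6) in the others, 4.73-fold. From rank 3 on, the members of mdagg-2 were close to the other libraries, with a ratio of 1.71 at rank 3, 1.46 at rank 10 and 1.30 at rank 25. The most abundant member of this line, rank 39 in field 11, had 101 and 98.9 CPM in mdagg-2, and 68.7 to 79.8 CPM in the other 6 libraries. Rank 10, a transcript of 4527 bases in field 15, showed the same small and even step, with 16.3 and 15.8 CPM in mdagg-2 and 9.16 to 10.8 CPM in the rest.

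The first member of mdagg-3, MD08G1171700, a short transcript of 437 bases, had 181 and 121 reads in mdagg-3. It had 0 reads in both wt libraries, 0 and 3 in mdagg-2, and 0 and 1 in mdagg-4. In mdagg-3 it stood at 4.63 ± 1.79 CPM (SD, n = 2), which was at least 112-fold higher than wt when wt is set to a floor of 3 reads over its 2 libraries. MD11G1168800, the next, had 48 and 52 reads in mdagg-3, 0 and 0 in wt, 0 and 3 in mdagg-2, and 3 and 2 in mdagg-4. Its level of 1.51 ± 0.0816 CPM (SD, n = 2) was at least 36.3-fold higher than wt on the same floor. These 2 transcripts were near absent from every library outside mdagg-3, and a count of 0 in wt sets only an upper limit at this depth.

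Lower ranks of mdagg-3 included transcripts present everywhere. The third, an unplaced feature, had 78 and 96 reads in mdagg-3, 8 and 29 in wt, 11 and 15 in mdagg-2, and 13 and 29 in mdagg-4. The most abundant member in all 3 lines was rank 27, in field 16, with 2400 and 1600 CPM in mdagg-3, 955 and 1170 CPM in wt, 1200 and 443 CPM in mdagg-2, and 993 and 104 CPM in mdagg-4. This transcript differed widely between the 2 libraries of mdagg-4 and of mdagg-2, and its lower mdagg-3 library was 1.34 times the highest other. Rank 36, in field 09, was the most abundant per length, at a mean of 4840 TPM in mdagg-3, TPM being the unit that corrects for transcript length. Its levels of 1460 and 1650 CPM in mdagg-3 compared with 824 and 423 CPM in wt, 1130 and 535 CPM in mdagg-2, and 600 and 413 CPM in mdagg-4. For 22 of the 50 members of mdagg-3 the highest other library was replicate 1 of mdagg-2, the library that stood apart.

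In mdagg-4 the first member, MD00G1098300, is an unplaced feature with 117 and 99 reads in mdagg-4. It had 5 and 0 reads in wt, 10 and 4 in mdagg-2, and 2 and 7 in mdagg-3. As the rule requires the groups did not overlap, at 2.93 ± 0.653 CPM (SD, n = 2) in mdagg-4 against 0.148 ± 0.119 CPM (SD, n = 6) in the others, 19.8-fold. MD13G1190500 had 353 and 478 reads in mdagg-4, 14 and 14 in wt, 52 and 70 in mdagg-2, and 66 and 67 in mdagg-3. It formed 3 tiers, with wt lowest, mdagg-2 and mdagg-3 alike in the middle, and mdagg-4 highest at 11.1 ± 1.19 CPM (SD, n = 2).

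**Figure D2:**
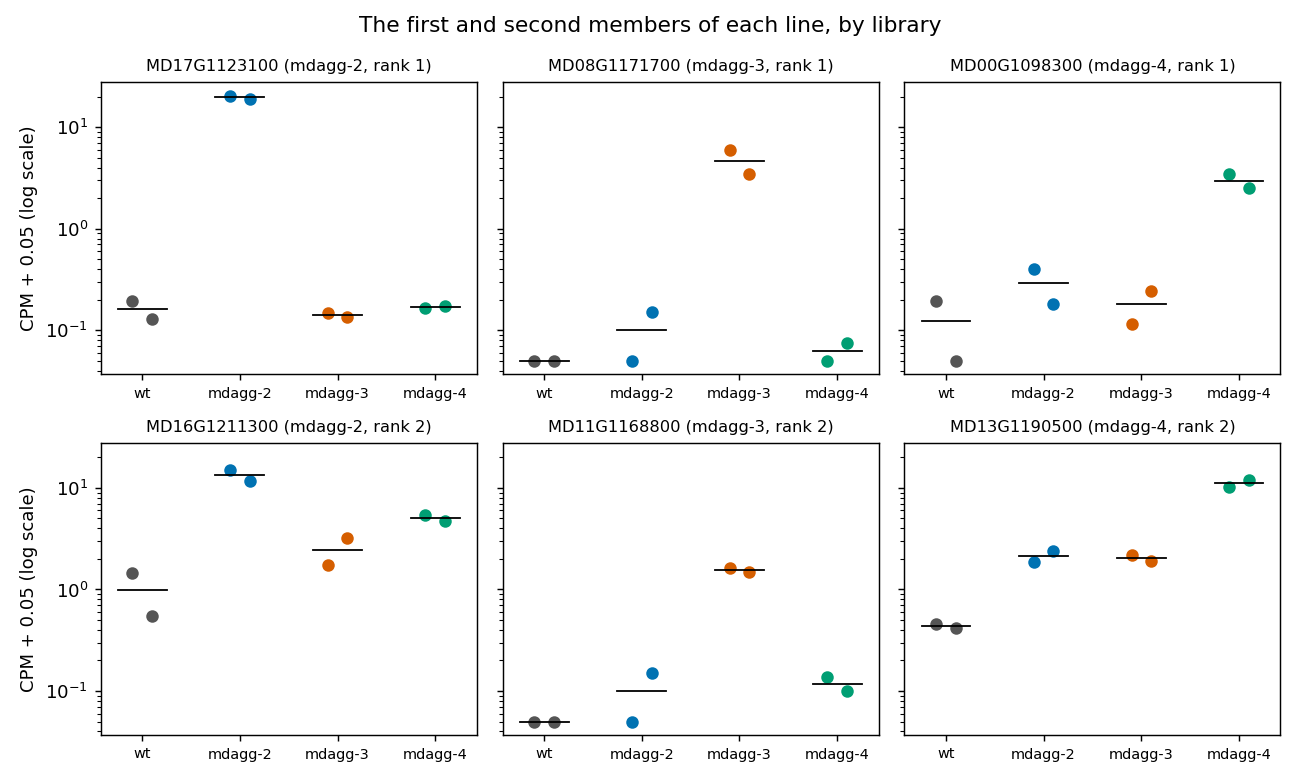
CPM plus 0.05 (log scale) in each library for the 2 highest-ranked members of each line; points are libraries and bars the mean of 2 libraries, coloured by group. MD17G1123100, MD08G1171700, MD11G1168800 and MD00G1098300 are high in 1 line and near the bottom of the axis elsewhere, whereas MD16G1211300 and MD13G1190500 are also above wt in both other lines.

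Behind these came transcripts of low abundance. Rank 3 of mdagg-4, in field 02, had 23 and 28 reads in mdagg-4, 0 and 0 in wt, 1 and 0 in mdagg-2, and 2 and 3 in mdagg-3, and was at least 16.5-fold higher than wt on the floor of 3 reads. Rank 12, in field 03, had 504 and 221 reads in mdagg-4 and 5 to 95 in the other 6 libraries. Rank 15, in field 14, had 64 and 80 reads in mdagg-4, 28 and 31 in mdagg-3, and 0 to 3 in each of the other 4 libraries, so that mdagg-3 held the next highest level.

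Across the members, 14 of mdagg-4 had all other 6 libraries under 0.5 CPM, against 7 of mdagg-2, 4 of mdagg-3 and 9 of the wt set, and no member lacked reads in all 6. The exact 95% counting interval of the lower library of the line lay above that of the highest other library for 22, 18 and 25 members of mdagg-2, mdagg-3 and mdagg-4 and for 17 of the wt set. These intervals cover counting error only, not the spread between plants. Fewer than 50 reads in the lower library of the line were the basis of 15, 14 and 18 members. The higher of a line's 2 libraries was a median of 1.1 times the lower for members of mdagg-2, 1.15 times for those of mdagg-3 and 1.2 times for those of mdagg-4, and 3, 6 and 11 members exceeded 1.5 times.

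**Figure D3:**
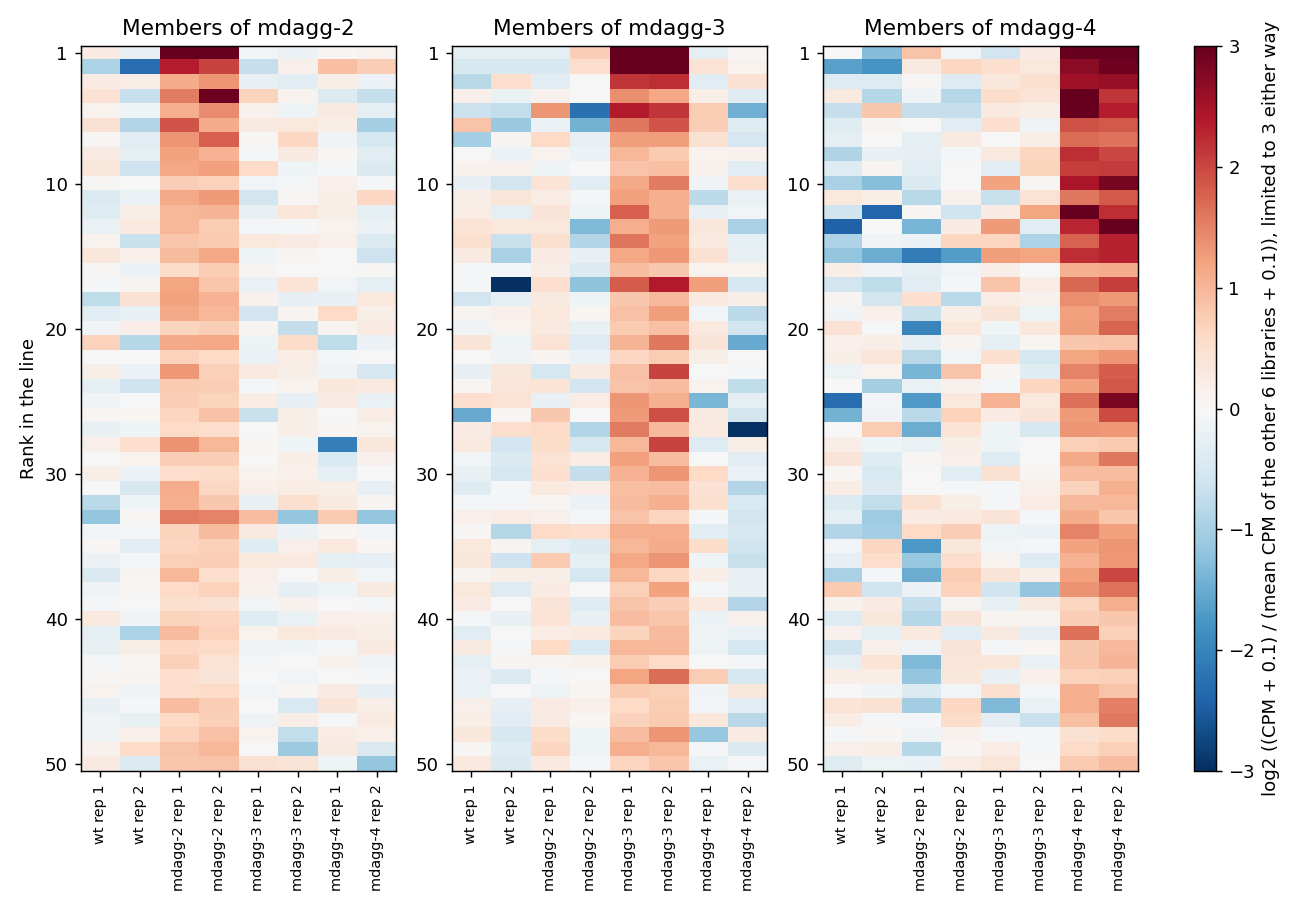
Level of each of the 50 members of mdagg-2, mdagg-3 and mdagg-4 (rows, by rank) in the 8 libraries (columns), as log2 of CPM plus 0.1 relative to the mean of the other 6 libraries plus 0.1, limited to 3 either way. The rule fixes the red columns of each line; outside them, replicate 1 of mdagg-2 is low for several members of mdagg-4, and rank 27 of mdagg-3 is low in replicate 2 of mdagg-4.

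The mean of the other 2 lines was also set against wt with edgeR's quasi-likelihood test. The rule held all the other 6 libraries below the line and so limited these values, but it did not use which of them were wt. All 150 members passed the low-count filter that left 32373 features, of which 2 of mdagg-2, 2 of mdagg-3 and 11 of mdagg-4 passed only through the line where they are high. No member of mdagg-2 passed an adjusted p of 0.05, with 0.0% of all features called, nor of mdagg-3 (0.0%), nor of mdagg-4 (0.0%). An unadjusted p under 0.05 was reached by 3 of 50 members of mdagg-2 where 2.66% of all features passed, 2 of 50 of mdagg-3 where 2.85% passed, and 7 of 50 of mdagg-4 where 3.83% passed, and all 12 were higher in the other lines. The median log2 difference of the members was 0.03, 0.06 and 0.14, beside -0.01, -0.01 and 0.01 over all features tested. Among features that passed the filter without the line, a restriction added after the data were seen, the unadjusted threshold was reached by 3 of 48 members of mdagg-2 (2.64% of all such features), 1 of 48 of mdagg-3 (2.83%) and 6 of 39 of mdagg-4 (3.8%), with medians of 0.05, 0.05 and 0.08. Leaving out members with no wt reads, whose fitted values set no bound, the medians were 0.03, 0.05 and 0.10. With DESeq2 as the alternative, 1 member of mdagg-2, none (0) of mdagg-3 and 1 of mdagg-4 passed. DESeq2 called 64, 82 and 49 features in all, of the 33389, 34178 and 33389 that had an adjusted p.

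The members that DESeq2 called were those with the intermediate patterns above. MD13G1190500 was higher in the mean of mdagg-2 and mdagg-3 than in wt by 2.40 ± 0.28 (SE) on the log2 scale, with all 4 libraries of those lines above both of wt. Its adjusted p was 0.243 with edgeR, 0.0573 to 1 over the edgeR alternatives, and 1.47e-05 with DESeq2. MD16G1211300 was higher in the mean of mdagg-3 and mdagg-4 than in wt by 1.89 ± 0.46 (SE), with all 4 libraries above both of wt, at an adjusted p of 1 with edgeR (0.577 to 1 over the edgeR alternatives) and 0.014 with DESeq2. The difference was 2.81 without replicate 1 of wt and 1.32 without replicate 2 of wt. Rank 10 of mdagg-4, in field 01, had 66 and 102 reads in mdagg-4, 23 and 10 in mdagg-3, 5 and 8 in mdagg-2, and 3 and 2 in wt, a difference of 2.23 ± 0.66 (SE) for the mean of the other lines that edgeR did not call (adjusted p 0.999).

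**Figure D4:**
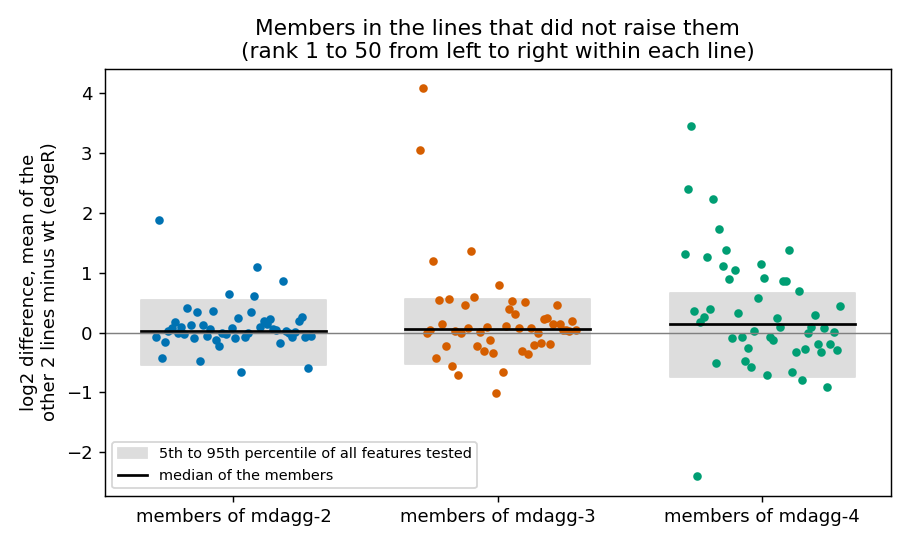
Log2 difference between the mean of the other 2 lines and wt (edgeR) for each member of mdagg-2, mdagg-3 and mdagg-4, ordered by rank from left to right, with the member median as a bar and the 5th to 95th percentile of all features tested in grey. Outside the grey band lie 7 members of mdagg-2, 11 of mdagg-3 and 19 of mdagg-4. By definition the band also leaves out the lowest 5% and the highest 5% of all features. The points include 2, 2 and 11 members that passed the low-count filter only through the line where they are high, so nothing is read from these counts. The 2 highest of mdagg-3 and the highest of mdagg-4 have no wt reads.

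Libraries were also counted line by line. Of the members of mdagg-2, 9 (18%) had both mdagg-3 libraries above both of wt where 16.4% of all eligible features did, and 10 (20%) had both mdagg-4 libraries above wt where 12.3% did. Of the members of mdagg-3, 8 (16%) were above wt in mdagg-2 beside 14.2%, and 7 (14%) in mdagg-4 beside 12.3%. Of the members of mdagg-4, 6 (12%) were above wt in mdagg-2 beside 14%, and 17 (34.0%) in mdagg-3 beside 16%. The last count stood farthest from its background, and that of mdagg-2 members in mdagg-4 came next. In the same order, both libraries lay below both of wt for 7, 6, 5, 6, 6 and 6 members. The shares of all eligible features below wt were 15.9%, 14.5%, 15.6%, 14.6%, 15.8% and 16.9%. The background holds features of every level above the minimum. Among the members of mdagg-4, 11 passed the low-count filter only through that line, so nothing is read from these counts. All these counts share the wt libraries.

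The second libraries of the 4 groups were also compared with the first in a fit with a mean per group. None of the 150 members (0) passed an adjusted p of 0.05 with edgeR, beside 0.0% of all features. DESeq2 called 277 of the 25499 features that had an adjusted p, with 0 members among them. An unadjusted p under 0.05 was reached by 9 members (6.00%), beside 11.6% of all features. The rule favours features whose own libraries lie close together, so nothing is read from the lower share. The median difference of the members was -0.06 on the log2 scale for mdagg-2, -0.22 for mdagg-3 and 0.15 for mdagg-4. The second library was lower in the fit for 32, 39 and 17 of 50. Over all features the median was 0.0, with 50.2% higher. The rule also limited the other 6 libraries, and for 22 members of mdagg-3 the highest of these was replicate 1 of mdagg-2. Members share the same libraries, so nothing is read from these directions.

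Each line was also set against wt, a contrast the rule had used, so that these counts are given with their background and nothing is read from them. With edgeR 1 member of mdagg-2 was called higher (0.00309% of all features), none (0) of mdagg-3 (0.0%) and 1 of mdagg-4 (0.00309%), namely MD17G1123100 and MD13G1190500. The first was lost without replicate 2 of wt, and the second when any 1 library of wt, mdagg-3 or mdagg-4 was left out. DESeq2 called 3 members of mdagg-2 higher (0.0705% of its features), 4 of mdagg-3 (0.083%) and 11 of mdagg-4 (0.143%). An unadjusted edgeR p under 0.05 with a higher level was held by 39 (2.04%), 36 (1.97%) and 38 (1.49%). Among the members of mdagg-2, 3 had in the authors' deposited table an adjusted p under 0.05 and were higher than wt (0.0365% of its features), as were 13 of mdagg-3 (0.363%) and 13 of mdagg-4 (0.143%).

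The identifiers carry a position that the rule did not use. In the apple nomenclature the digits after MD name the chromosome, field 00 holds unplaced features, and the number that follows rises along the chromosome; the files give no coordinates, so position here is the order of identifiers. The 150 members lay in all 18 fields. Fields 01, 11 and 16 held most, with 13 members (8.67%) each, where 4.48%, 5.99% and 5.55% of features at 0.5 CPM or more lie. The unplaced field 00 held 11 (7.33%) beside 3.26%, and field 07 held 2 (1.33%) beside 5.81%. The members of mdagg-2 were most frequent in field 15, with 8, and field 16, with 6, those of mdagg-3 in fields 01 and 11, with 6 each, and those of mdagg-4 in fields 00, 02 and 16, with 5 each. The wt reference set also had 8 members in field 15, the field with the largest share of features (9.20%).

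**Figure D5:**
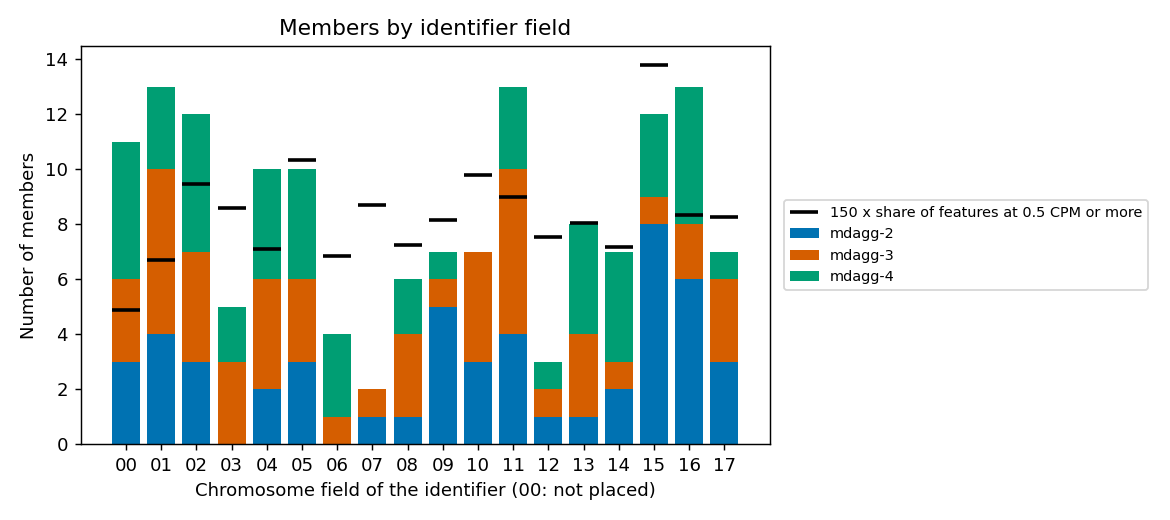
Number of members (stacked bars, by line) in each chromosome field of the identifier, with 150 times the field's share of features at 0.5 CPM or more as black marks. Fields 00, 01, 11 and 16 rise farthest above their marks, with 11, 13, 13 and 13 members, and fields 07 and 12 fall farthest below theirs, with 2 and 3. Other fields lie above or below their marks by less.

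Few members were neighbours. Within 10 steps of identifier order of another member of the same line lay none (0) of the members of mdagg-2, 8 of mdagg-3, 4 of mdagg-4 and none (0) of the wt set, and with 1 library left out these counts ran from 0 to 6, 2 to 9, 2 to 8 and 0 to 8. Pairs directly beside each other were 2 in mdagg-3, in fields 01 and 08, and 1 in mdagg-4, in field 16. In field 01, rank 26 of mdagg-3 had 2.97 and 4.79 CPM in mdagg-3 and 0.351 to 2.12 CPM in the rest, and rank 18, beside it, had 16.3 and 18.2 CPM in mdagg-3 and 6.23 to 11.4 CPM elsewhere. In field 16, rank 18 of mdagg-4 had 1.88 and 1.72 CPM in mdagg-4 and 0.333 to 0.971 CPM elsewhere, and rank 11, beside it, had 0.986 and 1.20 CPM against 0.104 to 0.390 CPM. Members of different lines were side by side in 3 places, 2 in field 01 and 1 in field 05. Whether reads were shared between neighbours of similar sequence was not tested.

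The features next to the leading members were in part too weakly expressed to follow or not follow them. On either side of MD17G1123100 the nearest features had at most 1 read in any library, too few to show either outcome. The feature before MD08G1171700 had 3 to 15 reads and the one after it none (0). Others had more reads. The feature before MD11G1168800 had 277 to 475 reads, with a log2 difference of -0.12 between mdagg-3 and the other 6 libraries. The one after it had 4 to 30 reads and a difference of 0.68. After MD16G1211300 the feature had 550 to 905 reads and a difference of -0.12 for mdagg-2, and the one before had none (0). Before MD13G1190500 the feature at step 2, singled out after its values were seen, had 27 and 74 reads in mdagg-4, 45 and 47 in mdagg-2, 5 and 5 in wt, and 0 and 0 in mdagg-3. The feature at step 1 had 8 and 15 reads in mdagg-4, 8 and 10 in mdagg-2, 0 and 4 in wt, and again 0 and 0 in mdagg-3. Neighbours of the placed members were then pooled, leaving out members of the same set and features with a mean under 0.5 CPM over the 8 libraries. Those 1 step away numbered 55 for mdagg-2, 45 for mdagg-3 and 44 for mdagg-4, with 51 for the wt set. Their median log2 difference between the group and the other 6 libraries was 0.16, -0.08 and -0.08 for the lines. In the wt set it was 0.01. Of these neighbours 70.9% were above 0 for mdagg-2, 40% for mdagg-3 and 40.9% for mdagg-4. Among all 29630 features with that mean the shares were 49.8%, 49.9% and 48.4%. Within 5 steps the medians were 0.03, -0.02 and 0.04. Of 269, 256 and 244 such neighbours, 1, 1 and 3 were higher in the line by 1 or more on the log2 scale.

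Members were somewhat shorter than the features they were drawn from. The median transcript length was 1370.5 bases for mdagg-2 (267 to 4527), 1302.5 bases for mdagg-3 (419 to 3342) and 1132.5 bases for mdagg-4 (277 to 3874), beside 1592, 1584 and 1592 bases for features that met the minimum. The wt reference set was also short, at 1133 bases. Shorter transcripts give fewer reads at the same TPM, and the part of this in the choice was not tested.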

How the data were processed

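The authors' deposited tables, 1 a library, come from Salmon, named without a version in the submitters' processing notes; per the file headers they hold transcript length, TPM and an estimated count of reads for 52311 features. The genome build is not given in the sources used here. For comparisons with wt, the authors' deposited table gives a log2 fold change and an adjusted p-value by line. DESeq2 is named in the submitters' notes without a version.

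Estimated counts, of which 67.9% were exactly whole, were rounded and scaled with TMM. Tests used edgeR 4.0.16 (quasi-likelihood, R 4.3.3) in 1 fit of all 8 libraries, 1 mean for each group, with 4 residual degrees of freedom (3 with a term for replicate number), with filterByExpr leaving 32373 features and Benjamini-Hochberg adjustment over all of them at 0.05. The fits of the other lines against wt and of second against first libraries were tested on simulated data. DESeq2 1.42.0, other scalings and filters, and leaving out each library were alternatives. A floor of 3 reads stands for counts of 0.

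The members, lists and tests were chosen with earlier results of these data known. The 2 members with the highest ratio in each line are named. Of the reference table's identifiers 0 matched, so the fixed gene and marker lists held 0 members and were not tested. Libraries of a group are the labels' separate experiments. The edgeR p-values rest on the spread within groups, estimated over all 4 groups together and drawn towards that of other features.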

Additional observations from a re-analysis of the deposited data

How the results depend on the processing

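Membership moved with the processing. Of the 50 members of mdagg-2, mdagg-3 and mdagg-4, DESeq2 size factors kept 47, 48 and 48, library totals 32, 41 and 39, the deposited TPM 18, 26 and 19, and adding 0.5 CPM in place of 0.1 kept 27, 27 and 28; leaving out 1 library kept 3 to 46, 9 to 43 and 5 to 42. Features with a ratio of at least 2, at first 2, 3 and 12 with 7 in wt, were 14, 10, 33 and 13 with TPM, 1, 3, 3 and 2 with 0.5 CPM added, 2, 3, 5 and 4 with a minimum of 1 CPM, and 4, 5, 15 and 9 with no minimum; leaving out 1 library gave 2 to 97, 3 to 43, 12 to 235 and 7 to 41, highest where the library left out was the line's own. Higher than wt, DESeq2 called 28, 31 and 50 features with 3, 4 and 11 members; leaving out 1 library moved the edgeR count between 0 and 1 in mdagg-2 (0 without wt replicate 2) and in mdagg-4 (0 without either library of wt, mdagg-3 or mdagg-4). For the mean of the other lines against wt, DESeq2 called 64, 82 and 49 features with 1, 0 and 1 members, edgeR without a low-count filter called 4, 6 and 0 features, and leaving out 1 library gave 0 to 2, 0 to 2 and 0 to 1, with 0 members called by edgeR under every alternative run. DESeq2 called 277 features between the second and first libraries and 0 members. A replicate block left the edgeR counts at 1, 0 and 1 members for each line against wt and at 0, 0 and 0 for the other lines. The log2 differences between replicate 1 and replicate 2 of a group were compared between groups and had no common direction. Their correlations were -0.314 (wt and mdagg-3), -0.0475 (wt and mdagg-4), 0.0903 (mdagg-2 and mdagg-3) and 0.229 (mdagg-3 and mdagg-4). They were 0.262 for wt and mdagg-2 and 0.529 for mdagg-2 and mdagg-4. The labels do not tie the numbers to shared experiments, so the libraries were treated as unpaired. Library totals moved the scale by -0.14 (mdagg-2 replicate 1) to 0.15 (mdagg-4 replicate 2) on the log2 scale against TMM.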
